A study of Mus musculus with 2 samples.

Results

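The mitochondrial genome transcripts described here were the products of the 37 mouse genes whose symbol starts with mt-, out of 55536 annotated genes in the gene tables. They comprised 13 protein genes, 2 rRNA genes and 22 tRNA genes on the mitochondrial chromosome (chrM). Members were set by the start of their symbol, a rule that uses no measured value, although earlier results of these data were known. They were described in 2 poly(A)-selected RNA-seq libraries of macrophages grown from the bone marrow of C57BL/6J mice. Both libraries belonged to 1 group and were labelled replicate 2 and replicate 1. According to the description field, the cells had been given 100 ng/ml Lipid A, the part of bacterial lipopolysaccharide that anchors it in the membrane, over 12 h. After a wash-out of 12 h they received the same dose for another 300 min. A separate field on treatments has lipoprotein A, typed as a protein, in its place, and which name is right could not be told. The libraries carry separate biosample identifiers and 1 donor identifier, while sex and age were not collected. With 1 group, no response to the treatment could be measured. Every ratio below compares the libraries, or the quantifications of the same reads, as a description without a p-value, and the spread between the libraries may be partly technical.

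Mammalian mitochondrial DNA is transcribed into long precursors from both strands, which are cut apart mostly at the tRNAs that lie between the protein and rRNA genes. The protein genes encode core subunits of the respiratory complexes I, III and IV and of the ATP synthase, complex V. The other subunits of these complexes come from nuclear genes. Most mitochondrial mRNAs and rRNAs end in a short A tail, whereas mature tRNAs end in CCA. Nuclear chromosomes hold stretches of mitochondrial DNA that were inserted in evolution, and reads from an mt- gene can match such a copy equally well.

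Replicate 2 held 46342331 and replicate 1 held 50503159 expected counts over genes in the tables made from a transcriptome alignment, called alignment-based here. Tables of transcript estimates made directly from the reads, called read-based here, summed to 50451746 counts in replicate 2 and 55512010 in replicate 1. Levels are in TPM, transcript abundances scaled to a fixed total, which divides counts by the effective length of a transcript, meaning its number of allowed fragment starts. All 10 macrophage markers examined reached at least 10 TPM, with a median of 573 TPM. T and B cell markers stayed at or below 0.14 TPM and fibroblast markers at or below 0.39 TPM as means. The neutrophil genes S100a9 and S100a8 stood at 2.23 and 1.57 TPM in replicate 2, against 37.9 and 23.1 TPM in replicate 1, while Ly6g was at 0 in both. The 5 neutrophil markers summed to 3.84 TPM in replicate 2 and 61.3 in replicate 1, and the 4 endothelial markers to 49.3 in replicate 2 and 15.7 in replicate 1. Most of the endothelial sum was Kdr, at 41.6 TPM in replicate 2 and 11.0 in replicate 1. Vwf stood at 4.56 TPM in replicate 2 and 1.35 in replicate 1, Pecam1 at 2.23 in replicate 2 and 1.96 in replicate 1, and Cdh5 at 0.87 in replicate 2 and 1.38 in replicate 1, so the 4 did not move together. The part that such cells had in the values below was not tested, and in bulk RNA fewer cells of a type and less RNA per cell cannot be told apart.

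For 7 protein genes, a near-identical sequence is annotated in the nuclear genome. A search of all GENCODE M21 transcripts found 17 nuclear genes, on 7 chromosomes, with at least 90% identity to an mt- transcript over at least 100 bases. Of these, 7 had at least 98% identity, and all 7 were annotated as unprocessed pseudogenes in a single block of 4663 bases on the minus strand of chromosome 1 (mm10, chr1:24611535-24616197). The block holds, in the order of the mitochondrial genome, Gm29216 (mt-Co1), Gm28661 (mt-Co2), Gm10925 (mt-Atp6), Gm28437 (mt-Co3), Gm28438 (mt-Nd3), Gm10222 (mt-Nd4l) and Gm28439 (mt-Nd4). The aligned stretch was identical for 5 of them, and it held a single mismatch in each of the other two.

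The following stretches show the whole difference between mt-Nd3 and Gm28438 over 345 aligned bases, the substitution T3C, where the position counts from 1 at the 5′ end of mt-Nd3. The mt-Nd3 stretch lies at chrM:9459-9491 on the plus strand and that of Gm28438 at chr1:24613087-24613119 on the minus strand (mm10, GENCODE M21 transcripts). Capitals mark the base that differs.
mt-Nd3: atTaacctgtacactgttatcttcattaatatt
Gm28438: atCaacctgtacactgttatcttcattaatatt

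Within mt-Co1 the last 483 bases aligned to Gm29216 with the single substitution A1066T, counted from the 5′ end of mt-Co1. Gm13340, a copy on chromosome 2 that spans all 1545 bases of mt-Co1 at 97.6% identity, has the mt-Co1 base there and differs elsewhere in the window. The windows are chrM:6390-6423 (plus), chr1:24616155-24616188 (minus) and chr2:22588552-22588585 (minus). In the copies, and in mt-Co1 where Gm29216 differs, capitals mark the bases that are not shared.
mt-Co1: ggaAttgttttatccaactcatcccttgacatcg
Gm29216: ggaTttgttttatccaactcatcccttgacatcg
Gm13340: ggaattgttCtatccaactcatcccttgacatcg

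The annotated copy of mt-Co2 stops short of the end of the gene, as the final bases of both transcripts show. The mt-Co2 stretch is chrM:7654-7696 (plus), that of Gm28661 is chr1:24614885-24614924 (minus), and capitals mark the bases that only the mt-Co2 transcript includes, its stop codon.
mt-Co2: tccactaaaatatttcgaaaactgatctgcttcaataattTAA
Gm28661: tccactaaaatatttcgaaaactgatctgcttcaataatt

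Counts of the alignment-based tables placed 1.42% of all gene counts in replicate 2 on mt- genes (exact 95% Clopper-Pearson interval 1.419 to 1.425), against 1.45% in replicate 1 (1.448 to 1.455). These intervals cover counting error only. The 13 protein genes took 595729 counts in replicate 2 and 664905 in replicate 1, which were 90.4% and 90.7% of the mt- counts. The 2 rRNA genes took 63225 counts in replicate 2 and 68233 in replicate 1, or 9.59% and 9.31%. The tRNA genes took 0. Adding the counts of the nuclear copies brought the share of all gene counts to 2.08% in replicate 2 and 2.16% in replicate 1. The read-based tables, without copies, gave 1.60% in replicate 2 and 1.64% in replicate 1. With copies they gave 2.06% in replicate 2 and 2.12% in replicate 1, so the quantifications differed less once copies were included.

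The 17 copies together held 307240 counts in replicate 2 and 360066 in replicate 1 of the alignment-based tables. That was 31.8% of the summed counts of mt- genes and copies in replicate 2 and 32.9% in replicate 1, a mean of 32.4 ± 0.80% (SD, n = 2). Read-based tables gave the copies 227431 counts in replicate 2 and 266344 in replicate 1, a mean of 22.3%. Nearly all of these counts lay in the chromosome 1 block. The other 10 copies, with identities of 90.7 to 97.6%, held 55.3 counts in replicate 2 and 55.4 in replicate 1, and 8 of the 10 were at 0 in both alignment-based tables. Gm13340, printed above, held 47.1 counts in replicate 2 and 46.2 in replicate 1.

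**Figure D1:**
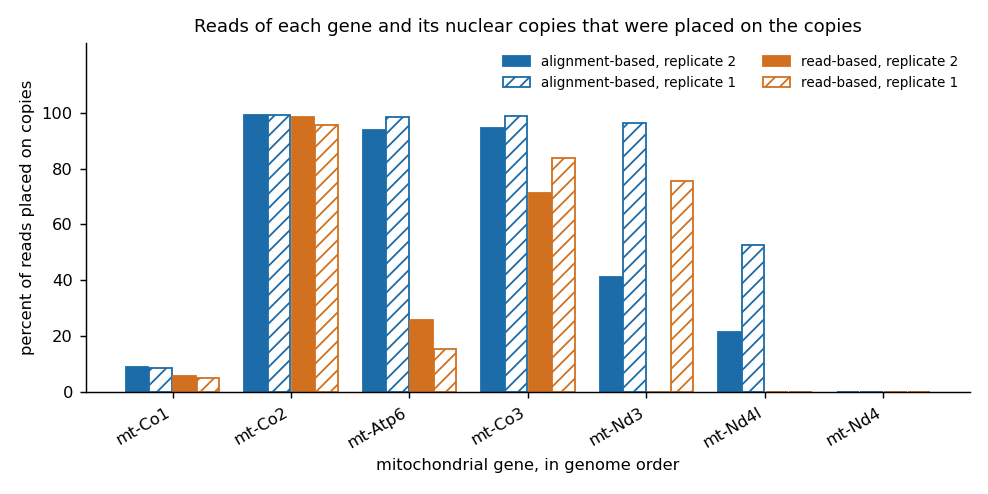
Percent of the reads of each mt- gene and its nuclear copies that the tables placed on the copies (y axis, percent), for the 7 genes with a copy in the chromosome 1 block, in genome order. The block copies cover 483 of 1545 bases of mt-Co1, 876 of 1378 bases of mt-Nd4 and nearly all of the other genes. Bars are single libraries, replicate 2 filled and replicate 1 hatched, alignment-based in blue and read-based in orange; mt-Co2 sits above 95% in all 4 tables, mt-Nd4 at 0, and mt-Nd3 between 0.01% and 96.4%.

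With copies added, each of the 3 genes of complex IV, cytochrome c oxidase, had a higher level in both libraries than any gene of complexes I and III. The catalytic subunit mt-Co1 (chrM:5328-6872) stood at 7731 TPM in replicate 2 and 8293 in replicate 1, a mean of 8012 ± 398 TPM (SD, n = 2). By counts it was the 10th highest gene of the whole table in both libraries. The copy Gm29216 held 32911 counts in replicate 2 and 37404 in replicate 1, and copies took 9.10% of the mt-Co1 reads in replicate 2 and 8.86% in replicate 1. Gm29216 covers only the last 483 of the 1545 bases of mt-Co1. This share is therefore not directly comparable with those of copies that span nearly a whole gene. With copies added, mt-Co1 had 8505 TPM in replicate 2 and 9099 in replicate 1.

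mt-Co2, which carries the copper centre that accepts electrons from cytochrome c, stood at only 65.1 TPM in replicate 2 and 76.6 in replicate 1 (chrM:7013-7696). Its copy Gm28661 held 110529 counts in replicate 2 and 121639 in replicate 1, against 914.86 and 1162.16 counts of mt-Co2 in those libraries. The copy thus took 99.2% of the pair's reads in replicate 2 and 99.1% in replicate 1. With the copy added, mt-Co2 reached 7929 TPM in replicate 2 and 8092 in replicate 1, close to mt-Co1 with copies, since the ratio of mt-Co1 over mt-Co2 was 1.07 in replicate 2 and 1.12 in replicate 1. Read-based tables likewise placed 98.3% of these reads on Gm28661 in replicate 2 and 95.6% in replicate 1.

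mt-Co3, the third core subunit (chrM:8607-9390), stood at 304 TPM in replicate 2 and 64.8 in replicate 1. Gm28437, identical to it over 783 bases, held 90372 counts in replicate 2 and 115921 in replicate 1. The gene alone had 5271.8 counts in replicate 2 and 1217.21 in replicate 1. Their sum put mt-Co3 at 5511 TPM in replicate 2 and 6234 in replicate 1, so the replicate that was higher for the gene alone was the lower one with the copy.

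The subunits of complex I, NADH dehydrogenase, fell into genes with and without shared reads. mt-Nd1, at the junction of the membrane and the peripheral arm, stood at 1617 TPM in replicate 2 and 1927 in replicate 1. The proton-pumping subunits followed, with mt-Nd2 at 993 and 968 TPM, mt-Nd4 at 1323 and 1324 TPM, and mt-Nd5 at 1126 and 1043 TPM in replicates 2 and 1. These 4 genes differed between the libraries by at most 0.26 in size on the log2 scale. mt-Nd4 has an 876-base identical match in Gm28439, yet Gm28439 was listed at 0 counts in both libraries of both quantifications, and mt-Nd4 itself extends over 1378 bases.

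mt-Nd6, another membrane subunit, is the only protein gene of the minus strand (chrM:13552-14070). It stood at 1806 TPM in replicate 2 and 1963 in replicate 1, a mean of 1885 ± 111 TPM (SD, n = 2). It overlaps the end of mt-Nd5 by 14 bases on the opposite strand, and how strand was handled in the counting is not given in the sources used here. mt-Nd6 over mt-Nd5 was 1.60 in replicate 2 and 1.88 in replicate 1 by TPM, whereas by counts it was 0.269 in replicate 2 and 0.310 in replicate 1.

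mt-Nd3, a small subunit at the base of the peripheral arm (chrM:9459-9806), had the widest gap between libraries of the 15 protein and rRNA genes. It stood at 1382 TPM in replicate 2 and 76.0 in replicate 1, with 4813.69 counts in replicate 2 against 284.87 counts in replicate 1. Gm28438, which differs by T3C alone over the 345 aligned bases of the 348 in mt-Nd3, held 3366 counts in replicate 2 and 7676 in replicate 1. The copy's part of the pair's reads was 41.2% in replicate 2 and 96.4% in replicate 1. Summed, the pair had 8180 counts in replicate 2 and 7961 in replicate 1, or 2348 TPM in replicate 2 and 2124 in replicate 1. The read-based tables showed the same kind of split, with 0.60 counts on Gm28438 in replicate 2 and 6203 counts in replicate 1.

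mt-Nd4l, the smallest complex I gene here (chrM:9877-10173), stood at 2343 TPM in replicate 2 and 1014 in replicate 1. Gm10222, identical over 294 bases, held 1391 counts in replicate 2 and 2684 in replicate 1, which was 21.5% of the pair in replicate 2 and 52.8% in replicate 1. The read-based tables placed none of these reads on Gm10222. With the copy added, mt-Nd4l had 2986 TPM in replicate 2 and 2149 in replicate 1. A difference of 0.46 on the log2 scale was left, the same size as in the read-based tables, which had mt-Nd4l alone at 1936 TPM in replicate 2 and 1350 in replicate 1.

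mt-Cytb, the cytochrome b of complex III and its only mitochondrial subunit (chrM:14145-15288), stood at 1465 TPM in replicate 2 and 1754 in replicate 1, a mean of 1609 ± 205 TPM (SD, n = 2). It moved with mt-Nd1: mt-Cytb over mt-Nd1 was 0.906 in replicate 2 and 0.910 in replicate 1, and both genes were lower in replicate 2 than in replicate 1. Neither gene has a copy in the chromosome 1 block, and neither had counts on any copy in the alignment-based tables.

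Complex V gave the highest TPM value and the one that rests on the fewest fragment starts. mt-Atp8, a small membrane subunit (chrM:7766-7969), stood at 35883 TPM in replicate 2 and 20113 in replicate 1, from 17299 counts in replicate 2 and 11418 in replicate 1. By TPM it ranked 2nd of all genes in replicate 2 and 4th in replicate 1. By counts it ranked 433rd in replicate 2 and 743rd in replicate 1. The transcript has 204 bases, and the alignment-based tables gave it an effective length of 14.5 bases in replicate 2 and 15.6 in replicate 1. In the read-based tables the effective length was 48.9 bases in replicate 2 and 53.0 in replicate 1, and the level was 10070 TPM in replicate 2 and 5721 in replicate 1. The labels give a fragment size range of 250 to 400, and the mean fragment implied by the effective lengths of long genes was 261.6 bases in replicate 2 and 268.3 in replicate 1. All of these exceed the whole mt-Atp8 transcript.

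mt-Atp8 and mt-Atp6, the subunit that forms the proton path, share 43 bases on the same strand, a stretch shorter than the mean fragments above. The stretch printed is bases 122 to 204 of mt-Atp8, at chrM:7887-7969 (plus), and capitals mark the overlap, which begins at the start of mt-Atp6.
mt-Atp8: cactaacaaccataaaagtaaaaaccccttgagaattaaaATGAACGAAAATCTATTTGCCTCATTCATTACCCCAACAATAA
mt-Atp6 alone (chrM:7927-8607) stood at 316 TPM in replicate 2 and 73.0 in replicate 1. Its copy Gm10925 held 68615 counts in replicate 2 and 74687 in replicate 1, or 94.0% of the pair in replicate 2 and 98.5% in replicate 1. The read-based tables divided these reads otherwise, with 25.9% on the copy in replicate 2 and 15.6% in replicate 1, and gave mt-Atp6 alone 3395 TPM in replicate 2 and 3659 in replicate 1. With the copy, the alignment-based level was 5233 TPM in replicate 2 and 5030 in replicate 1. mt-Atp8 over mt-Atp6 was then 6.86 in replicate 2 and 3.998 in replicate 1 by TPM, but 0.237 in replicate 2 and 0.151 in replicate 1 by counts.

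The rRNA genes had nearly equal TPM. mt-Rnr1, the rRNA of the small mitochondrial ribosomal subunit (chrM:70-1024), stood at 957 TPM in replicate 2 and 936 in replicate 1. mt-Rnr2, the rRNA of the large subunit (chrM:1094-2675), stood at 941 TPM in replicate 2 and 938 in replicate 1. mt-Rnr2 over mt-Rnr1 was 0.984 in replicate 2 and 1.003 in replicate 1 by TPM, and 1.87 in replicate 2 and 1.92 in replicate 1 by counts. mt-Co1 with copies exceeded mt-Rnr2 by 9.04-fold in replicate 2 and 9.70-fold in replicate 1, in libraries that were selected for poly(A).

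**Figure D2:**
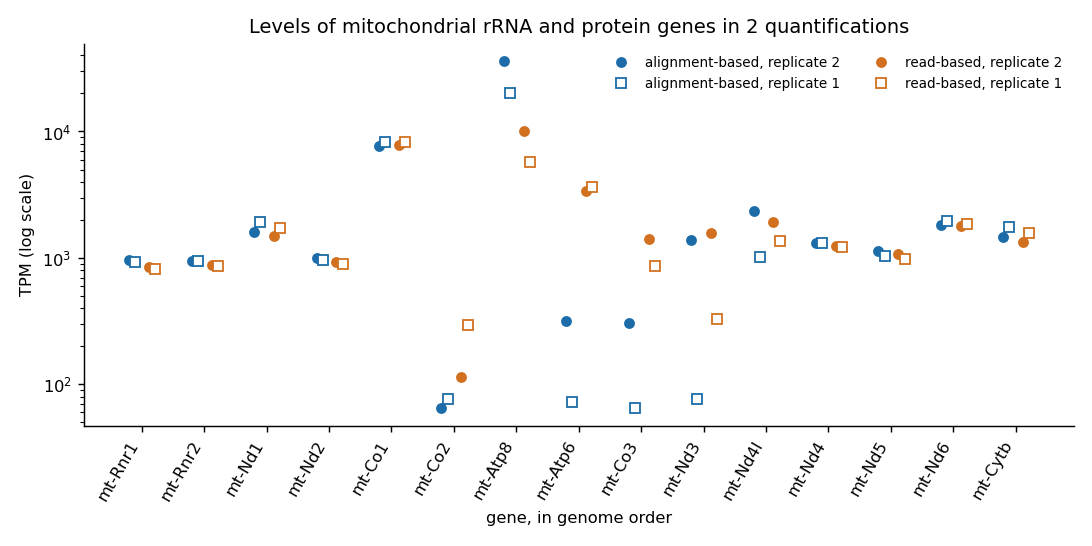
TPM (log scale) of the 2 rRNA and 13 protein genes of the mitochondrial genome, in genome order, without nuclear copies. Filled circles are replicate 2 and open squares replicate 1, alignment-based in blue and read-based in orange; mt-Co2, mt-Atp6, mt-Co3 and mt-Nd3 are spread over the tables, from 64.8 TPM for mt-Co3 to 3659 TPM for mt-Atp6, while genes such as mt-Nd4 stay within 1223 to 1324 TPM.

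Ordered by their mean level with copies in the alignment-based tables, the genes ran from mt-Atp8 through mt-Co1 (8802 ± 420 TPM), mt-Co2 (8011 ± 115), mt-Co3 (5872 ± 511) and mt-Atp6 (5131 ± 144) to mt-Nd4l (2567 ± 592) and mt-Nd3 (2236 ± 158; SD, n = 2 throughout). Then came mt-Nd6 (1885 ± 111), mt-Nd1 (1772 ± 219), mt-Cytb (1609 ± 205), mt-Nd4 (1324 ± 0.81), mt-Nd5 (1085 ± 58.2) and mt-Nd2 (981 ± 18.1), and last mt-Rnr1 (946 ± 14.8) and mt-Rnr2 (940 ± 1.85). Among neighbours in this order, the values of the libraries overlapped for mt-Nd4l and mt-Nd3, for mt-Nd6 and mt-Nd1, for mt-Nd1 and mt-Cytb, and for mt-Rnr1 and mt-Rnr2. The order differed in the read-based tables with copies, where mt-Co1 at 8483 TPM stood above mt-Atp8 at 7896, and mt-Nd6 at 1811 above mt-Nd4l at 1643 and mt-Nd3 at 1471. With copies, complex IV genes took 58.9% of the mitochondrial counts in replicate 2 and 60.6% in replicate 1, and complex I genes 20.8% in replicate 2 and 20.1% in replicate 1. Complex V genes took 9.35% in replicate 2 and 7.98% in replicate 1, and mt-Cytb of complex III 4.44% in replicate 2 and 5.11% in replicate 1. The rRNA genes took 6.54% in replicate 2 and 6.24% in replicate 1.

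Differences between the libraries were compared on counts scaled to library size, as the log2 ratio of replicate 2 over replicate 1. In the alignment-based tables, 4 of the 15 mt- genes that passed the filter on low counts lay at least 2-fold apart, all 4 higher in replicate 2, beside 528 of all 12543 genes tested (4.21%). The 22 tRNA genes did not pass the filter. The 4 were mt-Nd3 at 4.19, mt-Co3 at 2.23, mt-Atp6 at 2.12 and mt-Nd4l at 1.20, and each has a copy in the chromosome 1 block. In the read-based tables, 2 of 19 mt- genes lay past the line, beside 726 of all 14155 genes (5.13%). These were mt-Nd3 at 2.23 and mt-Co2 at -1.36. With the counts of copies added to their mt- genes, 0 of the 15 lay past the line, beside 523 of 12536 genes (4.17%).

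The values with copies were 0.16 for mt-Nd3, -0.18 for mt-Co3, 0.06 for mt-Atp6, 0.46 for mt-Nd4l and -0.02 for mt-Co2. In the read-based tables with copies they were 0.19 for mt-Nd3, -0.14 for mt-Co3, 0.09 for mt-Atp6, 0.46 for mt-Nd4l and 0.01 for mt-Co2, so the gene-by-gene ratios of the 2 quantifications came within 0.04 of each other for these genes. The median ratio over the 13 protein genes was 0.03 alone and -0.01 with copies, and the median over all genes was 0.00. mt-Atp8, which has no copy at 90% identity, kept a ratio of 0.72 with copies in the alignment-based tables and 0.71 in the read-based ones. It is the shortest of the protein genes. Among all genes of 200 to 300 bases the median ratio was 0.12 over 21 genes, with 12 of them higher in replicate 2. Those 21 include mt-Atp8 itself and mt-Nd4l without its copy. Among genes of 301 to 600 bases the median was -0.14 over 363 genes. The part of fragment length in the mt-Atp8 ratio was not tested.

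**Figure D3:**
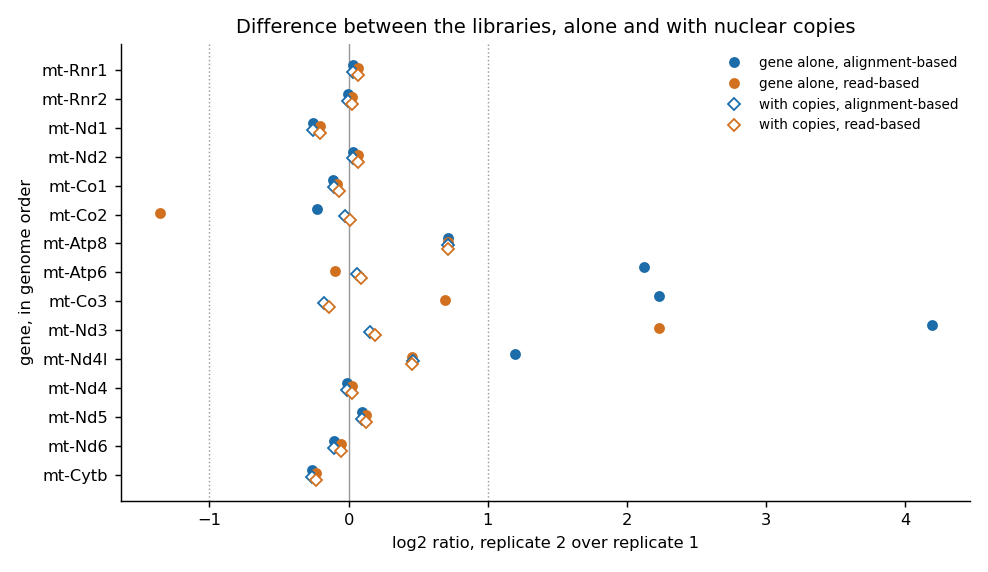
Log2 ratio of replicate 2 over replicate 1 (x axis) for the 15 protein and rRNA genes in genome order (y axis), for the gene alone (filled circles) and with its nuclear copies (open diamonds), alignment-based in blue and read-based in orange. Dotted lines mark 2-fold; with copies every gene lies between -0.27 and 0.72, while mt-Nd3 alone reaches 4.19.

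The deposited posterior means average over the possible placements of shared reads. Their SD covers the spread within the alignment-based quantification only, not the difference from the read-based one. For the 8 genes mt-Rnr1, mt-Rnr2, mt-Nd1, mt-Nd2, mt-Atp8, mt-Nd5, mt-Nd6 and mt-Cytb, the posterior SD was at most 0.1 counts, and the expected counts were whole to the 2 decimals deposited. The other 7 were the genes with a copy in the chromosome 1 block. For mt-Co2 the posterior mean was 6403 ± 1850 counts in replicate 2 and 6164 ± 1696 counts in replicate 1, where ± is the deposited posterior SD, against expected counts of 914.86 and 1162.16 in those libraries. For mt-Co3 it was 31632 ± 4517 counts in replicate 2 and 37460 ± 3565 in replicate 1. For mt-Atp6 it was 8239 ± 1392 counts in replicate 2 and 5477 ± 1892 in replicate 1. In both libraries the expected counts of mt-Co2, mt-Co3 and mt-Atp6 lay more than 2 posterior SD below these means. Posterior means of mt-Nd3 stayed near its expected counts, at 4794 ± 383 counts in replicate 2 and 310 ± 93.2 counts in replicate 1, and its ratio was 4.07. The read-based tables gave mt-Nd3 8424 counts in replicate 2 and 1999 in replicate 1. By posterior means the log2 ratio between the libraries was -0.13 for mt-Co3, 0.71 for mt-Atp6 and 1.18 for mt-Nd4l.

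Comparing the quantifications by mean TPM, 4 of the 15 protein and rRNA genes lay at least 2-fold apart, beside 1612 of 12268 genes overall at 1 TPM or more in either (13.1%). mt-Atp8 alone was higher in the alignment-based tables, with a log2 ratio of alignment-based over read-based of 1.83. The lower ones were mt-Atp6 at -4.18, mt-Co3 at -2.62 and mt-Co2 at -1.54. A further 14 tRNA genes at 1 TPM or more bring the count to 18 of 29, but the alignment-based tables hold no estimate for tRNA genes, so their place past the line was fixed by that and is no comparison. With copies added in both quantifications, the ratios of the protein and rRNA genes other than mt-Atp8 lay between 0.05 and 0.64, and those without shared reads, mt-Atp8 aside, between 0.06 and 0.18.

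The tRNA genes had no estimate in the alignment-based tables, where all 22, of 59 to 75 bases, were listed at 0 counts with an effective length of 0. The read-based tables gave them 1327 counts in replicate 2 and 1220 in replicate 1. Of those, mt-Tp, the proline tRNA, took 1221 counts in replicate 2 and 1107 in replicate 1, or 92.0% and 90.7%. Its sequence is shown whole because it carried nearly all tRNA reads (chrM:15356-15422, minus strand). The CCA end of a mature tRNA is not encoded in the gene.
mt-Tp: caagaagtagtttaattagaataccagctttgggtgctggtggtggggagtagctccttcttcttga
mt-Tp stood at 1898 TPM in replicate 2 and 1823 in replicate 1, on an effective length of 17.6 bases in replicate 2 and 15.1 in replicate 1. Scaled to depth alone, as CPM, counts scaled to the library total, it had 24.2 in replicate 2 and 20.0 in replicate 1. The next highest were mt-Tc, the cysteine tRNA, with 31 counts in replicate 2 and 29 in replicate 1, and mt-Tn, the asparagine tRNA, with 21 in replicate 2 and 31 in replicate 1.

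Counts of tRNA genes differed with the annotated strand of the gene, and most of them lay on mt-Tp. All 8 genes of the minus strand had at least 3 counts in both libraries, with 1315 counts in replicate 2 and 1209 in replicate 1 in all. Without mt-Tp, the other 7 had 94 counts in replicate 2 and 102 in replicate 1. The 14 genes of the plus strand summed to 12 counts in replicate 2 and 11 in replicate 1, with at most 4 for any gene, and 6 of them were at 0 in both libraries. A count of 0 allows up to 3 counts, which is 0.0595 CPM in replicate 2 and 0.0541 in replicate 1. The minus-strand tRNA genes lie opposite to the long precursor that carries 12 of the 13 protein genes, and without a stated strand setting their reads and antisense reads cannot be told apart.

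**Figure D4:**
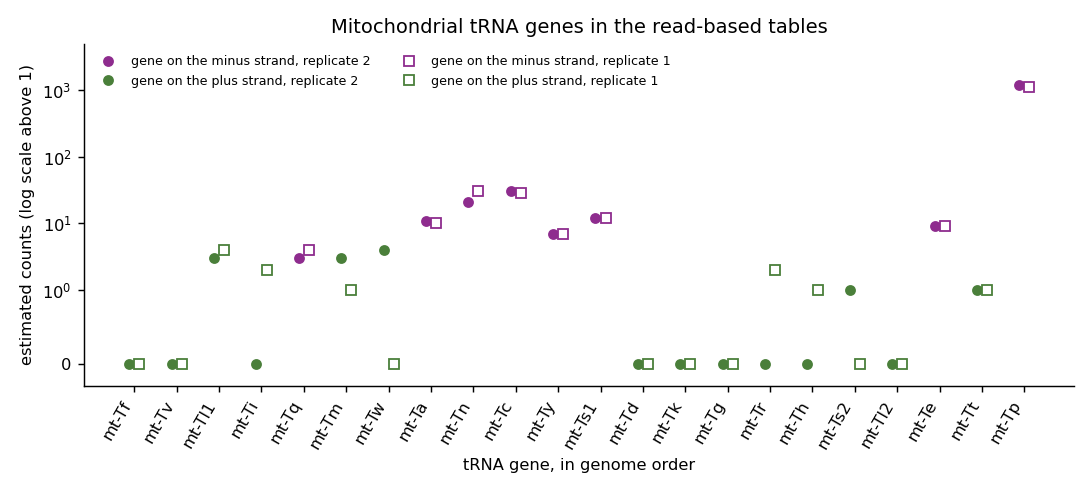
Estimated counts of the 22 mitochondrial tRNA genes in the read-based tables (y axis, linear from 0 to 1 and log scale above), in genome order. Purple marks genes of the minus strand and green those of the plus strand, filled circles replicate 2 and open squares replicate 1; mt-Tp stands at 1221 and 1107 counts in replicates 2 and 1, and every green point lies at or below 4.

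Mitochondrial subunit transcripts stood above those of their nuclear partners. With copies, the 13 protein genes had a median of 2236 TPM, and the lowest, mt-Nd2, had 981 TPM. The 76 nuclear subunit genes found, of 77 listed, had a median of 131 TPM, and all genes that passed the filter had a median of 10.9 TPM. The highest nuclear subunit, Cox6b1 of complex IV, reached 978 TPM on average, at 1031 TPM in replicate 2 and 925 in replicate 1. The mean of mt-Nd2 thus lay within the spread between the Cox6b1 values, and with copies the other 12 mitochondrial genes lay above it.

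By complex, the 36 nuclear genes of complex I had a median of 91.2 TPM, from Ndufb4 at 17.8 TPM to Ndufa1 at 256 TPM and Ndufa3 at 269 TPM, all accessory subunits. The counts of Ndufb4 were fractional, at 415.25 in replicate 2 and 445.53 in replicate 1, so its reads can be shared with other genes. Complex II, which has no mitochondrial gene, had a median of 126 TPM over 4 genes, with Sdhb at 207 TPM, Sdhd at 131 TPM and Sdhc at 87.6 TPM. Nuclear genes of complex III had a median of 160 TPM over 9 genes, from cytochrome c1 (Cyc1) at 56.7 TPM to Uqcr10 at 330 TPM and Uqcrh at 509 TPM. Those of complex IV had the highest median, 409 TPM over 11 genes, with Cox7c at 618 TPM and Cox7b lowest at 104 TPM. Complex V had 266 TPM over the 16 of 17 genes found, with the catalytic beta subunit Atp5b at 628 TPM, Atp5l at 535 TPM and Atp5g1, one of the genes for the c-ring subunit, at 75.8 TPM. Complex IV was thus the highest of these medians for nuclear genes, and 3 of the 5 highest mitochondrial genes with copies also encode complex IV. None of the 76 nuclear genes lay 2-fold apart between the libraries, beside 4.21% of all genes tested. Of the 76, 25 were higher in replicate 2, and their median log2 ratio was -0.16. Among all genes of 301 to 600 bases, 39.7% were higher in replicate 2, with a median of -0.14. For those of 601 to 1000 bases it was 36.4%, with a median of -0.11. The 21 genes of 200 to 300 bases, mt-Atp8 and mt-Nd4l among them, went the other way, with 57.1% higher and a median of 0.12. The part of gene length in the ratios of the 76 nuclear genes was not tested.

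**Figure D5:**
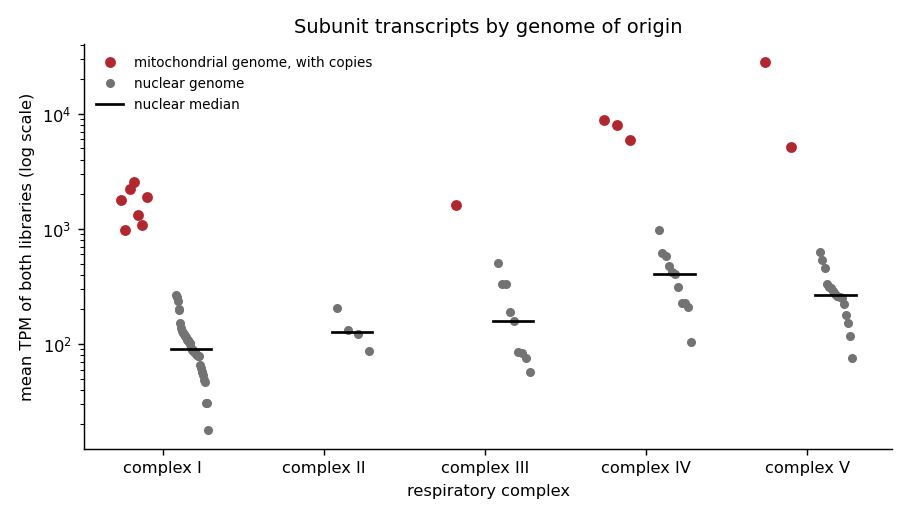
Mean TPM of both libraries (log scale) of subunit genes of respiratory complexes I to V, mitochondrial genes with their nuclear copies in red and nuclear genes in grey, with the nuclear median as a line. With copies, which were added to mitochondrial genes only, these all lie above the highest nuclear gene of their complex. An example is 981 TPM for mt-Nd2 against 269 TPM for Ndufa3, and complex II has no mitochondrial gene.

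Genes that copy, transcribe and process mitochondrial nucleic acids were expressed at lower levels. Of 14 genes of mitochondrial DNA copying and transcription, the median was 5.92 TPM. The single-stranded DNA-binding protein Ssbp1 stood highest at 36.9 TPM and the packaging and transcription factor Tfam next at 27.4 TPM. Mterf1b, a mouse paralogue of the termination factor gene Mterf1a, was lowest, at 0.37 TPM in replicate 2 and 1.14 in replicate 1. It was the only listed gene of this group past 2-fold, with a log2 ratio of -1.54, and its reads can be shared with Mterf1a. The 21 genes found, of 22 listed, for RNA cutting, tailing, binding and decay had a median of 12.6 TPM. They ran from the FASTK-family gene Fastkd1 at 3.90 TPM to the exonuclease Rexo2 at 71.8 TPM and Slirp, an RNA-binding partner of Lrpprc, at 154 TPM. The 26 proteins of the small subunit of the mitochondrial ribosome, which binds mt-Rnr1, had a median of 25.3 TPM, with Mrps21 at 185 TPM, Mrps18c at 143 TPM and Mrps35 lowest at 9.44 TPM. None of the genes of these last 2 lists lay 2-fold apart between the libraries, beside 4.21% of all genes, a share that is about 1 gene in lists of this size.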

How the data were processed

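Poly(A)-selected RNA of 2 macrophage libraries was quantified by the authors on mm10 with GENCODE release M21, per the README deposited with each sample. The deposited gene tables hold expected counts, posterior mean counts with their SD, and TPM, made from a transcriptome alignment per that README. The read-based transcript tables hold the authors' estimated counts and TPM, derived from the reads without that alignment, and were summed per gene, with 86 of 55536 genes not in them. Names and versions of tools, and the handling of strand, were not given in the sources used here. Other entries (0.0676% of counts in replicate 2 and 0.0631% in replicate 1) were left out of library sizes.

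Counts were rounded for the log2 ratios between the libraries, and summed counts were rounded for the intervals. Shares and levels with copies used unrounded counts. Ratios are log2 CPM with TMM factors and a prior count of 0.5 from edgeR 4.0.16 (R 4.3.3) for genes kept by filterByExpr. The calculation was tried on simulated counts with planted changes. Those counts had no reads shared between genes, so the trial does not bear on the placement of reads. DESeq2 1.42.0 size factors were an alternative. Ratios between quantifications used log2 of mean TPM plus 0.1. Copies were found with BLAST 2.17.0, and their counts were added to the best-matching mt- gene, divided by that gene's effective length. Tables, intervals and plots used Python 3.11.15 (SciPy 1.17.1, matplotlib 3.10.9, pandas 2.3.3, NumPy 2.4.6). All protein and rRNA genes are named, with the 3 highest tRNAs, the 2 highest and the lowest of each list of nuclear partners and machinery, any listed gene past 2-fold, and the 5 copies with the most counts. The other chromosome 1 copies and Gm13340 are named for their sequence, and marker lists are given by their range or sum, with any gene past 2-fold. Members and lists were chosen with earlier results of these data known. With 2 libraries of 1 group, no test was possible.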

Additional observations from a re-analysis of the deposited data

How the results depend on the processing

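The share of gene counts in mt- genes was 1.44% as the mean of both libraries, 1.62% in the read-based tables, 1.52% with posterior mean counts and 2.12% with copies added; single libraries gave 1.42 to 1.45%. The summed TPM of the protein genes was 47521, against 31403 in the read-based tables and 69275 with copies, and single libraries gave 38690 to 56353, a spread carried mostly by mt-Atp8. Of mt- genes, 4 lay 2-fold apart between libraries, against 2 in the read-based tables, 2 with posterior mean counts and 0 with copies. Between quantifications 18 of 29 lay 2-fold apart, but 11 of 22 with a minimum of 10 TPM and 4 of 16 in CPM, where most tRNA genes fall under the minimum and mt-Atp8 is no longer past the line; single libraries gave 16 to 19. Copies took 32.4% of mitochondrial and copy counts, 22.3% in the read-based tables and 28.4% with posterior mean counts, and single libraries gave 31.8 to 32.9%. The median ratio over protein genes stayed within 0.1 of its value of 0.03 under every alternative run. No paired analysis was possible because both libraries belong to 1 group. Depth does not limit the protein genes, whereas plus-strand tRNA genes lie near the 3 counts that a count of 0 allows.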

Other observations

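A further 13 nuclear genes matched mt- transcripts at 80.6 to 88.6% identity, and they were not counted as copies. The alignment-based tables gave them 0 counts in both libraries, and the read-based tables gave 0 in replicate 2 and 1 in replicate 1. Neighbouring mt- genes also share bases within the mitochondrial genome itself: mt-Nd4l and mt-Nd4 overlap by 7 bases on the same strand, and mt-Co1 and mt-Ts1 by 3 bases on opposite strands.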
